A study of Mus musculus with 18 samples.

Results

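The wide H3K9ac domains of the embryonic mouse cortex are the regions at which peaks of acetylated histone H3 lysine 9, merged over all libraries, spanned 2000 bp or more. Peaks of 8 deposited lists were merged wherever they overlapped by 1 bp or more, which gave 104737 regions. A domain was a merged region of 2000 bp or more that held a peak of every list, and 1633 of the 104737 regions (1.56%) met this rule. They were compared where useful with the 10767 narrower regions that also held a peak in all 8 lists. Members were thus chosen by the merged width and presence of the peaks themselves. Because the rule read the peaks, their number and width are given as descriptions. Tests of RNA use values that the rule did not read. Peak length was also tested between the treatments, but on the peaks that the rule read, so its results are descriptions.

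All samples came from whole cortex of E15.5 embryos that were BAF155 cKO, a conditional knockout of Smarcc1, whose protein BAF155 is a scaffold of the BAF nucleosome remodeller. Mice were treated with Vehicle or TSA (trichostatin A), an inhibitor of histone deacetylases. Each treatment had 4 RNA libraries and 4 H3K9ac libraries, and the 2 input libraries were not analysed here. The knockout is carried by both groups, no sample with intact BAF155 was analysed here, and the labels name no Cre driver, so TSA is compared with Vehicle on the knockout background alone. Whether the replicates came from different animals is not labelled, and p-values therefore cover only the spread between these samples, which may be technical.

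Acetylation of H3 lysine 9 loosens the hold of histones on DNA and is read by bromodomain proteins. It marks active promoters and enhancers, and is written by acetyltransferases such as the GCN5 and PCAF enzymes and removed by deacetylases. At most active genes the mark forms a short block just inside the gene. At a minority of genes, often those that set the identity of a cell type, active marks spread over several kilobases.

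Several of the widest domains lay over loci of neural microRNAs, small RNAs that pair with target transcripts through bases 2 to 8, the seed. All 3 mouse loci that encode miR-9, a microRNA of neural progenitors and young neurons, lay in 3 of the 5 widest domains, an observation made after the widths were seen. Mir9-2 (hairpin chr13:83738814-83738885, plus strand) lay in the widest, Mir9-1 (chr3:88215598-88215686, plus strand) in the 24544 bp domain and Mir9-3 (chr7:79505264-79505353, plus strand) in the 16705 bp domain. Mir125b-1, Mir137, Mir92b and Mirlet7e, further microRNAs of the developing brain, lay in domains of 12764, 5912, 4821 and 4630 bp. The mature forms are printed below from RefSeq (GRCm38.p6) with the seed in capitals, because they name what these domains encode, and no 2 of them share a seed.
miR-9-5p: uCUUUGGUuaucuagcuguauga
miR-9-3p: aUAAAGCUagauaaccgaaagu
miR-125b-5p: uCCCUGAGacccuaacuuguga
miR-137-3p: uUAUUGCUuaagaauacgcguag
miR-92b-3p: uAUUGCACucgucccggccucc
let-7e-5p: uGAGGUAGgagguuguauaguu
In all, 33 of the 1005 hairpins in the RefSeq table lay wholly inside a domain, in 30 of the 1633 domains (1.84%). Narrower shared regions held 41 hairpins, in 38 of 10767 regions (0.353%). Per megabase of sequence this came to 6.65 hairpins in domains and 3.47 in narrower regions. Mature microRNAs are not among the values analysed here.

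The domains were mostly near the lower limit and a few were very long. Their median width was 2525 bp, with quartiles at 2200 and 3198 bp, against a median of 1042 bp in the narrower shared regions. Of the 1633 domains, 113 were over 5000 bp and 16 over 10000 bp. Together they held 4959 kb, or 11.3% of the 43709.5 kb in all merged regions. The limit at 2000 bp cuts through a continuous distribution. The members just inside it were at Zfand3 (2000 bp), Tmed1 and Cnot2 (2001 bp each), and those just outside, 1 bp short of it, included Snx10 and Tex44. Within 100 bp of the limit, 219 domains lay above and 269 shared regions below. Nearly all wide regions were shared: 1633 of the 1693 regions of 2000 bp or more (96.5%) had a peak in every list, and Vehicle 4 was the list that lacked one in 52 of the other 60.

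Within a single list a domain was usually several peaks. Lists held 2.11 to 2.93 peaks per domain on average, and only the domain at Clip2 was a single peak in all 8. The peaks of 1 list covered 45.6% to 87.7% of the bases in domains. In the Vehicle lists 1 to 4 the median domain had 1755, 1840, 1964 and 1104 bp under peaks, and in the TSA lists 1789, 1872, 1448 and 2202 bp. The groups overlapped, with the lowest list in Vehicle and the highest in TSA. A domain reached 2000 bp of covered bases in every list in 200 cases (12.2%) and in no list in 450 cases (27.6%), so for the latter the width exists only in the merged set. Of the 1000 peaks with the highest fold enrichment in a list, 37.5% to 42.2% lay in domains, where 5.63% to 19.99% of all its peaks did. The rule chose the domains by the width of these same peaks, so the shares are descriptions.

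**Figure D1:**
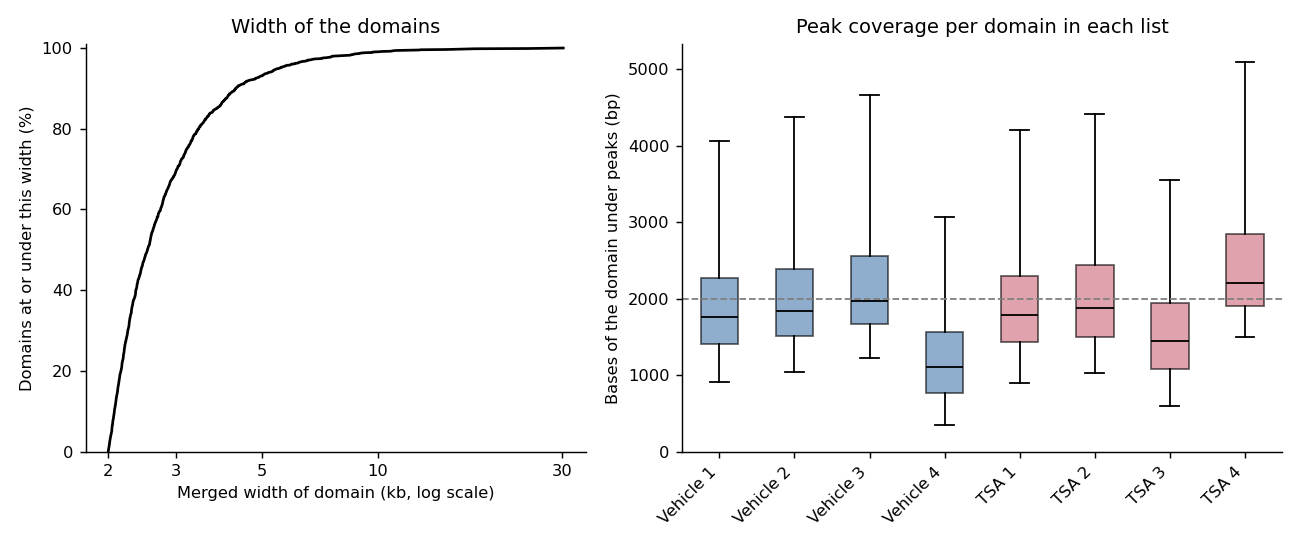
Left, the share of the 1633 domains (y, percent) at or under each merged width (x, kb, log scale). Right, bases of each domain under peaks (bp) in each list, as median, quartiles and whiskers that leave out the lowest and highest 5% of domains, with a dashed line at 2000 bp. Vehicle 4 lies lowest, with a median of 1104 bp, and TSA 4 highest, with 2202 bp.

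The depth behind these lists was uneven. Values of single libraries are listed below in replicate order, 1 to 4, in each treatment. H3K9ac libraries had 11824246 to 24075842 tags after filtering, and lists held 22668 to 61217 peaks. Vehicle 4 had the most tags and the fewest peaks, and TSA 4 had the most peaks. Leaving out both gave 1289 domains, and leaving out TSA 4 alone gave 1288. RNA totals ran from 6733415 counts in TSA 1 to 20400727 in TSA 3. Mitochondrial transcripts made up 2.86% and 3.36% of counts in Vehicle 1 and 4 and 1.48% to 1.997% in the other 6 libraries. Of markers that define the tissue, Emx1 and Tbr1 were found in every RNA library. Of 31 Hox genes, which mark hindbrain and spinal cord, 25 were at 0 in all of them. Dlx1 and Gad1, genes of the ventral forebrain and of inhibitory neurons, were found in every library too. In Vehicle they had 424 to 499 and 135 to 216 CPM, against 14.9 to 21.9 CPM for Emx1 and 200.1 to 296 CPM for Tbr1.

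The 10 widest domains held regulators of cortical development and microRNA loci, and all but the domain at Pax6 had overlapping lengths in the treatments. The widest (chr13:83712788-83742956, 30169 bp, mm10) covered the lncRNA gene C130071C03Rik with Mir9-2, and the nearest coding gene, Mef2c, lay 45709 bp away. Its peaks covered 27741, 28745, 29292 and 26044 bp under Vehicle against 28526, 28943, 28099 and 30169 bp under TSA. The second (chr8:84763605-84791362, 27758 bp) lay over listed starts inside Nfix, a nuclear factor I transcription factor of late progenitors and glia. The outer end of the gene on its start side lay outside this domain. Peaks in the domain covered 17598, 24666, 26265 and 17399 bp under Vehicle against 22788, 25026, 19550 and 27535 bp under TSA. TSA lists and Vehicle lists were intermixed at both. Domains at Mir9-1 (chr3:88197751-88222294) and Meis2 (chr2:116055468-116073304), a homeobox gene, measured 24544 and 17837 bp, and the host of Mir9-3 carried 2 neighbours of 16705 and 15025 bp (chr7:79495638-79512342 and chr7:79512412-79527436). The remaining ones were at Mn1 (chr5:111414436-111430377, 15942 bp), a transcriptional coregulator, inside Nfib (chr4:82493594-82506477, 12884 bp), a relative of Nfix, at Mir125b-1 (chr9:41578121-41590884, 12764 bp) and at Pax6 (chr2:105666441-105678286, 11846 bp).

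Pax6 encodes the paired box factor of apical progenitors, the dividing cells that line the ventricle. Peaks in its widest domain covered 11182, 11774, 11444 and 9830 bp under Vehicle against 2443, 5543, 4116 and 6708 bp under TSA. Every TSA list was below every Vehicle list. The change in log2 covered length, with each list centred on its own median, was −1.47 ± 0.28 (SE, n = 4 per group), and did not pass the limma test over the 12400 shared regions (adjusted p = 0.112). Of the other 9 widest domains, log2 changes lay between −0.21 and 0.02 and no adjusted p was under 0.859.

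**Figure D2:**
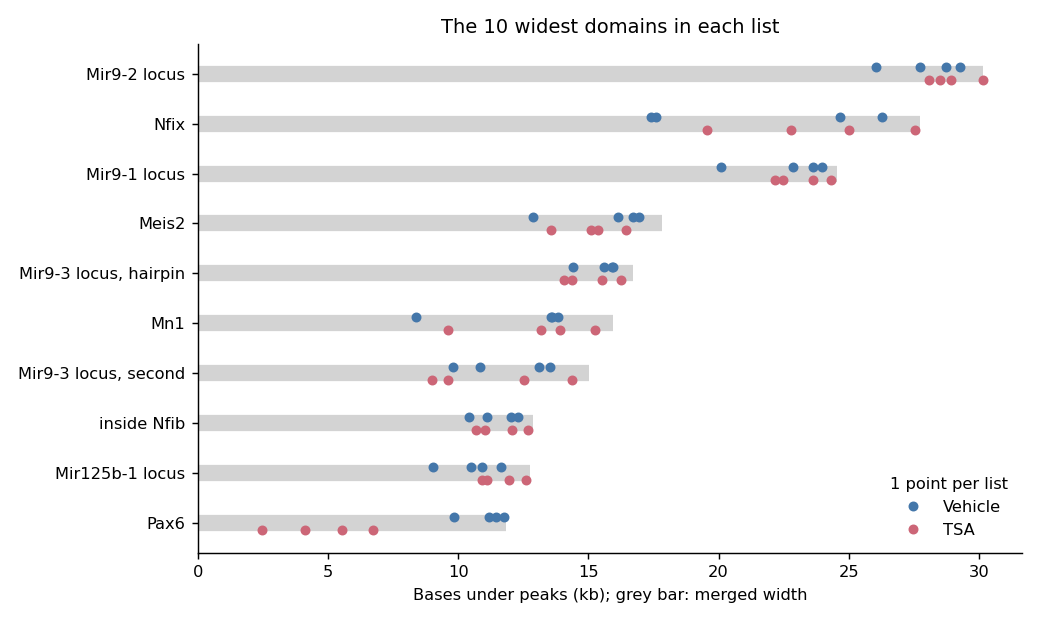
Bases under peaks (x, kb) in each of the 10 widest domains (y), 1 point per list, blue for Vehicle and red for TSA, over a grey bar for the merged width. The groups are intermixed except at Pax6, where the TSA lists lie between 2443 and 6708 bp and the Vehicle lists between 9830 and 11774 bp. The merged widths that chose these domains come from the same peaks.

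Most domains held the start of a gene. A start of a coding or lncRNA gene lay in 1135 of 1633 domains (69.5%, 95% Wilson interval 67.2% to 71.7%, counting error only) and in 5385 of 10767 narrower shared regions (50.01%). Coding starts lay in 1040 domains (63.7%) and 4990 narrower regions (46.3%). Of the domains, 209 (12.8%) held starts on both strands, against 479 narrower regions (4.45%), and 149 (9.12%) held 2 or more coding genes, against 324 (3.01%). A wider region holds more bases in which a start can fall, and the shares were not adjusted for width. Of domains without a start, 453 lay in a gene body and 45 outside genes. In all, 1180 coding genes (5.39% of those annotated) and 249 lncRNA genes started at a domain. For 262 of these 1429 genes the strand was not listed and either gene end was counted. Where the strand was known, 731 of 809 coding genes with an end in a domain (90.4%) started there.

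At gene starts the mark ran into the gene. In 517 domains that held 1 coding start of known strand and no other, the domain reached a median of 637 bp upstream and 1944 bp downstream of it, and 460 of them (89.0%) reached farther downstream. In 3347 narrower regions chosen alike, the medians were 214 and 839 bp, and 2936 (87.7%) reached farther downstream. So the extra width lay on both sides and was larger on the gene side. Coverage by list was highest 200 to 600 bp after the start, where 71.8% to 98.1% of these domains had a peak, and was lower at the start itself, with 26.7% to 83.2%. At 3000 bp after the start, 5.22% to 10.8% of the domains were still under a peak, and no narrower region was, as their width requires. TSA and Vehicle profiles overlapped, with Vehicle 4 lowest and TSA 4 highest.

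**Figure D3:**
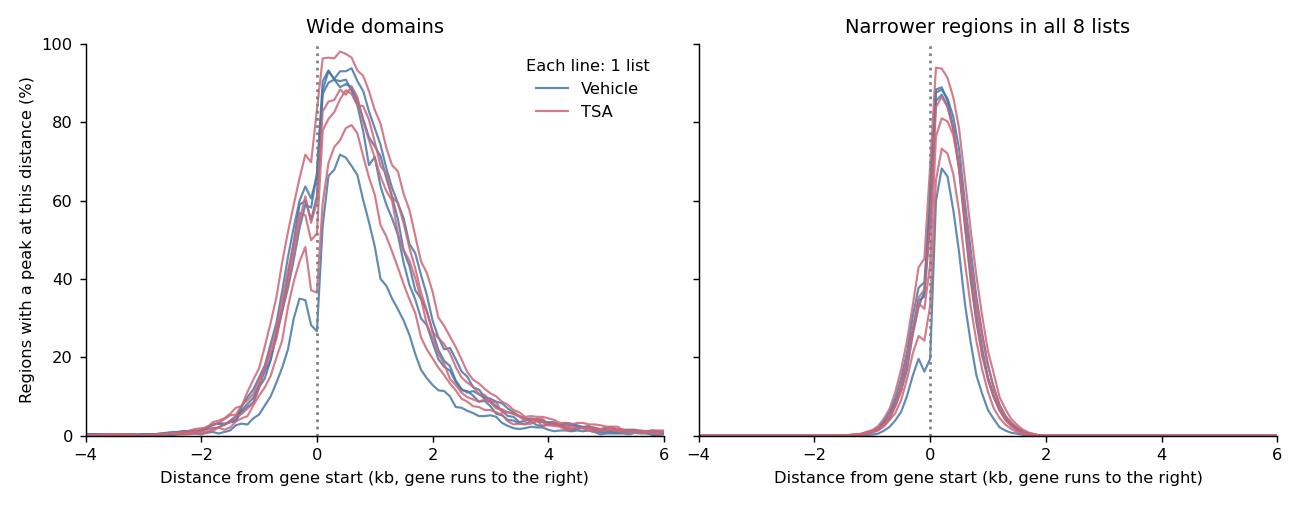
Share of regions with a peak (y, percent) by distance from the gene start (x, kb, with the gene running to the right), for 517 domains (left) and 3347 narrower regions (right), 1 line per list. In both, coverage peaks just inside the gene and dips at or just before the start, and in the domains it extends over more than 2000 bp downstream.

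The promoters of domain genes were rich in CpG, as were those of the narrower regions. Over 300 bp windows from 250 bp before to 50 bp after a coding start (RefSeq, GRCm38.p6), the median ratio of observed to expected CG was 0.765 in 1194 windows at domains, 0.770 in 4992 at narrower regions and 0.366 in 15077 at neither. A ratio above 0.6 was found in 75.4%, 78.0% and 35.4% of them. At domains of 4000 bp or wider it was found in 92 of 144 windows (63.9%). The letters GGGCGG, the core of a GC box, stood on either strand in 64.2% of windows at domains, 64.4% at narrower regions and 46.2% of all. TATAAA stood in 5.86%, 6.07% and 12.6%, and CCAAT in 31.2%, 37.2% and 38.2%. TGACGTCA stood in 2.35%, 3.49% and 2.23%. The E-box letters CAGCTG stood in 14.1%, 14.2% and 15.6%, and CAGATG in 10.4%, 11.1% and 14.6%. Both strands were searched, none of these motifs contains another, and a match is a description of the window only.

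A pair of promoters from domains and a pair from narrower regions are printed below, 5′ to 3′ along the gene, with each CG in capitals, as examples of the windows behind these shares. Neurog2 (chr3:127632886-127633185, plus strand) encodes a proneural factor and had 10 CG, and Dlx1 (chr2:71529195-71529494, plus strand) encodes a homeobox factor of the ventral forebrain and had 27. From the narrower regions, Ndufs3 (chr2:90904672-90904971, minus strand), a subunit of respiratory complex I, had 26, and Cdk4 (chr10:127063285-127063584, plus strand), a kinase of the cell cycle, had 22. The latter 2 genes were chosen after their class was known.
Neurog2 promoter: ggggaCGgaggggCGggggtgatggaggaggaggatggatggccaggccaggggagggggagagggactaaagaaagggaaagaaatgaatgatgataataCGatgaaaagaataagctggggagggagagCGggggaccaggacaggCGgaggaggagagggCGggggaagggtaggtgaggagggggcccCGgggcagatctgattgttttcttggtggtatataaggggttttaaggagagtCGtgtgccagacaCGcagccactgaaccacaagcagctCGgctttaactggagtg
Dlx1 promoter: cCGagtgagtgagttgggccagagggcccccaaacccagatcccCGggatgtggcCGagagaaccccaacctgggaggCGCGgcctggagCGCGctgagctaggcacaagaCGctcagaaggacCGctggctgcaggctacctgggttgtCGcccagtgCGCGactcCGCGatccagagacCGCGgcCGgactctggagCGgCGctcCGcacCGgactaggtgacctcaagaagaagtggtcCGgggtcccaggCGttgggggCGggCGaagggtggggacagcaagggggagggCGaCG
Ndufs3 promoter: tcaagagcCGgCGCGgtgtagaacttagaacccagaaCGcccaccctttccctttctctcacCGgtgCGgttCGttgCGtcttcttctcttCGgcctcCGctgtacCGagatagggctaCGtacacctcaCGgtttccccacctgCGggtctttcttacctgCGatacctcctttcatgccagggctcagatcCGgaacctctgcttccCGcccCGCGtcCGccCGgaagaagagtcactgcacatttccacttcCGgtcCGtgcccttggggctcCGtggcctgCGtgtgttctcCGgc
Cdk4 promoter: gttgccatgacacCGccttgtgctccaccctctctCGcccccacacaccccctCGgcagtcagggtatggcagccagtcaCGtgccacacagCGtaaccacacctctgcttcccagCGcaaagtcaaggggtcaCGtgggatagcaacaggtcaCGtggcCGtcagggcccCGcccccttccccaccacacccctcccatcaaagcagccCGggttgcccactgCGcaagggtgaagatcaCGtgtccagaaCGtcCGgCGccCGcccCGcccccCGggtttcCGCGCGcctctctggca

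Of the tested genes that started at a domain, 30.1% rose in TSA and 14.2% fell. Of 1292 domain genes with a count row, 1231 were tested (95.3%, against 93.8% of genes at narrower regions and 42.6% elsewhere). By edgeR's quasi-likelihood test at an adjusted p under 0.05, 370 of the 1231 rose, where 15.4% of all 15000 tested genes did. A fall was called for 175, where 17.6% of all did. The median log2 change, TSA minus Vehicle, was 0.11 over domain genes and −0.01 over all. Genes at narrower shared regions had 659 rises (12.8%) and 1246 falls (24.2%) among 5145, with a median of −0.07. Most changes were small. By more than 1 on the log2 scale, 13 of the 1231 domain genes rose (1.06%) and 17 fell. Among all 13953 tested genes with a RefSeq match, 165 rose (1.18%) and 226 fell by that much. With bulk tissue, fewer cells of a type and less RNA per cell cannot be told apart.

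The share that rose was larger in wider domains. It was 145 of 620 tested genes (23.4%) at 2000 to 2500 bp, 72 of 252 (28.6%) at 2500 to 3000 bp, 83 of 206 (40.3%) at 3000 to 4000 bp and 70 of 153 (45.8%) at 4000 bp or more. The median change went from 0.05 through 0.10 and 0.22 to 0.27. Falls did not follow width, with 15.8%, 14.3%, 9.71% and 13.7%. Longer genes also rose more often across the genome, so the counts were repeated by the genomic span of the gene. At spans under 10 kb, 13.5% of domain genes rose, against 4.35% at narrower regions and 6.61% elsewhere. At 10 to 30 kb the shares were 27.1%, 10.2% and 11.0%, at 30 to 100 kb 36.3%, 18.1% and 20.8%, and above 100 kb 53.5%, 28.2% and 29.9%. These are counts over genes, which are not replicates, and the differences between classes carry no test. The share that rose also went up with the RNA level. At a mean under 10 CPM, 7.77% of domain genes rose, against 3.85% at narrower regions and 5.93% elsewhere. At 10 to 50 CPM the shares were 17.2%, 9.22% and 16.02%, at 50 to 200 CPM 35.2%, 18.1% and 27.7%, and above 200 CPM 45.4%, 29.6% and 40.9%. Within these levels the distance from genes elsewhere was smaller than over all genes. RNA level also differed by domain width, with median Vehicle levels of 61.9, 73.8, 91.1 and 132.8 CPM from the narrowest to the widest domains. Widths were not compared within levels or spans, and the merged width includes TSA peaks. How far these take part in the larger share risen at wider domains was not tested.

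**Figure D4:**
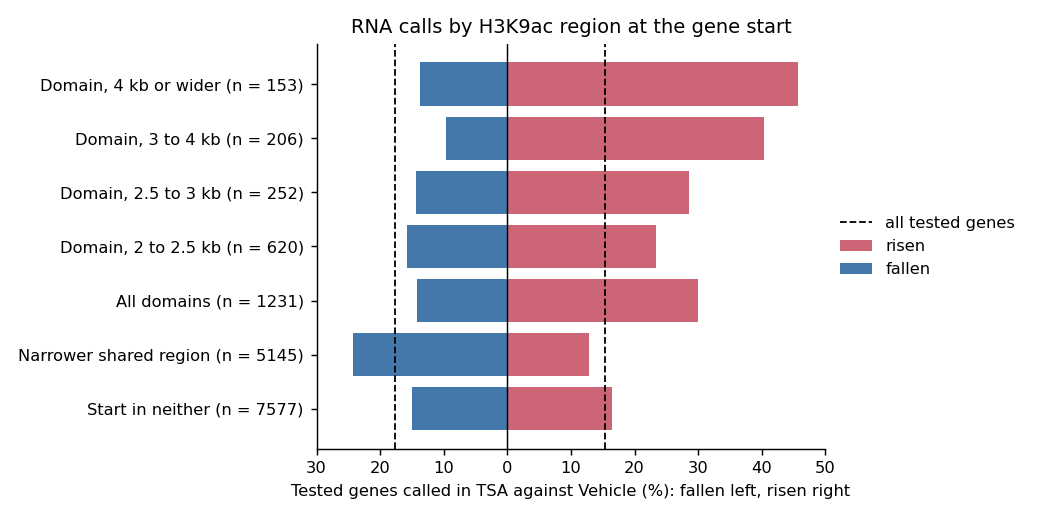
Percent of tested genes called in TSA against Vehicle by edgeR, falls to the left and rises to the right, for genes starting at domains of each width, at narrower shared regions or at neither, with the number tested in each. Dashed lines mark the 15.4% risen and 17.6% fallen among all 15000 tested genes. The share risen goes from 23.4% to 45.8% with domain width.

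Transcription factors of cortical projection neurons, the excitatory neurons that leave the cortex or cross it, were the list with most members at domains, and most of those rose. Of 30 listed genes, 22 started at a domain. Of these, 18 rose and 1 fell, with a median log2 change of 0.53, where 15.4% of all tested genes rose and 17.6% fell. Above 200 CPM, 45.4% of domain genes and 40.9% of genes elsewhere rose. The 8 members elsewhere, which for the gene lists means not at a domain, had 6 rises and 2 falls. Nfix had 548, 551, 434 and 337 CPM under Vehicle against 1128, 963, 730 and 1127 CPM under TSA. Every TSA library was above every Vehicle library, and the log2 change by edgeR was 1.08 ± 0.17 (SE of 4 against 4 libraries, adjusted p = 4.0e-04). Fezf2, which specifies subcerebral neurons, had 113, 85.9, 80.6 and 71.2 CPM under Vehicle against 176, 151, 133 and 170.2 CPM under TSA, a change of 0.84 ± 0.13, adjusted p = 3.9e-04 by the same test. Its groups did not overlap. Neurod2, a factor of maturing excitatory neurons, changed by 0.82 ± 0.13, adjusted p = 3.2e-04, and Pou3f2, a factor of upper layers, by 0.89 ± 0.11, adjusted p = 8.1e-05. Nfib, Bcl11a and Mef2c, factors of later differentiation, changed by 0.76 ± 0.17, 0.39 ± 0.10 and 0.48 ± 0.13 (adjusted p = 0.00325, 0.00977 and 0.0131). The Mef2c call was lost without TSA 2 (adjusted p = 0.0609) and without both mitochondria-rich Vehicle libraries (0.087). The summed level of the 30 genes was 7201 to 10477 CPM in Vehicle and 12459 to 14300.4 CPM in TSA libraries, and how far the share of these cells takes part was not tested. The member that fell was Foxp2, a factor of deep layers and striatum, with 61.7, 81.4, 127 and 98.8 CPM under Vehicle against 32.9, 48.4, 43.8 and 46.02 CPM under TSA and a change of −1.09 ± 0.19, adjusted p = 0.00109.

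The largest rise at a domain was that of Neurog2, which drives progenitors towards neurons. It had 28.5, 41.4, 22.6 and 24.4 CPM under Vehicle against 111, 82.5, 94.7 and 111 CPM under TSA. The lowest TSA library was above the highest Vehicle library, and the log2 change by edgeR was 1.76 ± 0.17 (SE of 4 against 4 libraries, adjusted p = 2.6e-05). Its domain measured 3408 bp (chr3:127631843-127635250). Nrn1, a secreted neurite growth factor, had 42.4, 43.1, 34.2 and 39.3 CPM under Vehicle against 96.9, 95.9, 100.4 and 94.1 CPM under TSA, a change of 1.29 ± 0.09, adjusted p = 8.8e-07, at a domain of 5930 bp (chr13:36730914-36736843). Foxo6, a forkhead factor, had 25.1, 28.04, 29.1 and 18.5 CPM under Vehicle against 51.98, 51, 48.5 and 63.7 CPM under TSA, with a change of 1.09 ± 0.14, adjusted p = 8.1e-05. In all of these genes the groups did not overlap. The other rises named by the same rule, which took called rises whose groups did not overlap, were in Lrp4, a receptor of agrin and Wnt signalling (1.46 ± 0.12, adjusted p = 3.2e-06), Tenm4, a teneurin adhesion protein (1.10 ± 0.13, adjusted p = 5.6e-05), Fam53b (1.04 ± 0.12, adjusted p = 6.2e-05) and Serinc5 (1.04 ± 0.09, adjusted p = 4.4e-06). Lrp4, Fam53b and Serinc5 had domains of 2232, 2250 and 2092 bp, near the lower limit.

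**Figure D5:**
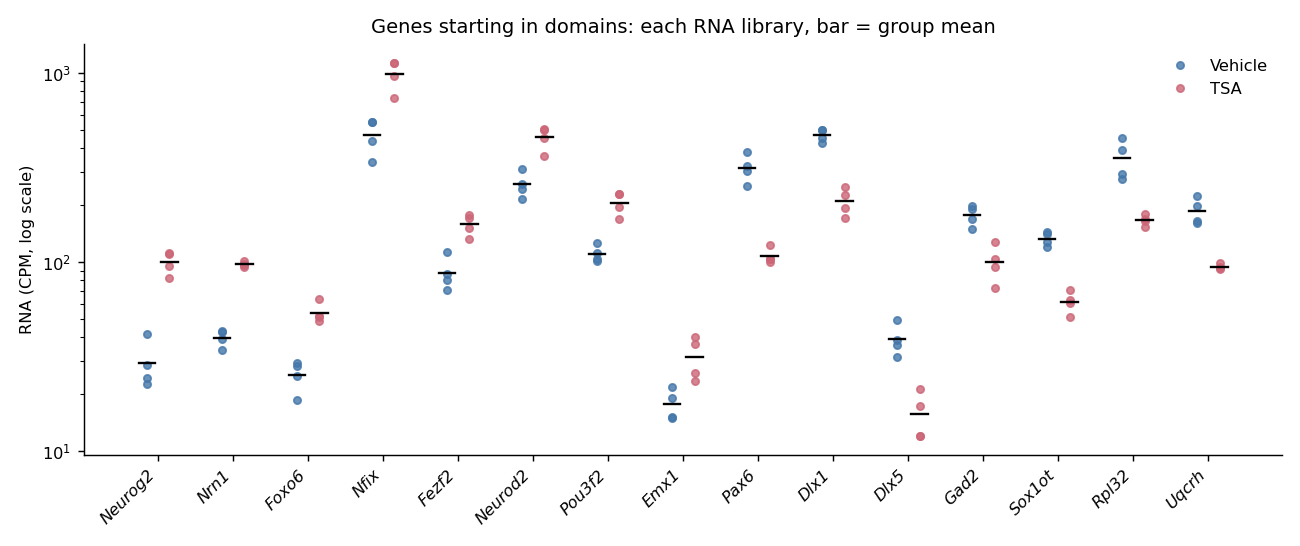
RNA (y, CPM, log scale) of 15 genes that start in domains, 1 point per library in blue for Vehicle and red for TSA, with a bar at each group's mean. Neurog2 to Emx1 lie higher in TSA and Pax6 to Uqcrh lower, and in each of the 15 the groups do not overlap.

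Genes of inhibitory neurons and of the ganglionic eminences, the ventral source of these neurons, were lower in TSA at most of their domains. Of 20 listed genes, 10 started at a domain and 9 of them fell, with a median log2 change of −0.90, where 17.6% of all tested genes fell. The 10 members elsewhere moved both ways, with 3 rises and 3 falls (median −0.40). Of these, Nkx2-1 and Lhx8, factors of the medial ganglionic eminence, changed by 2.22 ± 0.45 and 2.27 ± 0.62 (SE, edgeR adjusted p = 0.00353 and 0.0205), and Lhx6, a factor of the interneurons born there, by 0.51 ± 0.12, adjusted p = 0.0042. Gsx2, a progenitor factor of the lateral eminence, changed by −2.18 ± 0.24, adjusted p = 4.2e-05, and Sp9 by −1.32 ± 0.15. The Nkx2-1 call was lost without Vehicle 1 and 4 together (adjusted p = 0.0911), and the Lhx8 call without Vehicle 2 or 4, without Vehicle 1 and 4 together, with no filter and with a replicate block (0.0675 to 0.111). Dlx1 had 453, 424, 499 and 497 CPM under Vehicle against 169.6, 191, 249 and 227 CPM under TSA, a change of −1.16 ± 0.12, adjusted p = 2.6e-05 (SE, n = 4 per group, edgeR). Dlx5 had 36.2, 31.3, 49.6 and 38.5 CPM under Vehicle against 12.04, 12.1, 17.3 and 21.3 CPM under TSA, a change of −1.29 ± 0.19, adjusted p = 2.4e-04. In both, every TSA library was below every Vehicle library. Dlx6 and Dlx2, their homeobox relatives, changed by −1.21 ± 0.25 and −0.89 ± 0.17 (adjusted p = 0.00278 and 0.00172). Gad1 and Gad2, which make the transmitter GABA, changed by −0.91 ± 0.15 and −0.82 ± 0.14 (adjusted p = 5.6e-04 and 8.2e-04), and Slc32a1, which loads it into vesicles, by −0.73 ± 0.22, adjusted p = 0.0208. The Slc32a1 call was lost without TSA 1 or 2 or Vehicle 3 or 4 (adjusted p = 0.0575 to 0.0805). Sp8, a zinc finger factor of interneurons, changed by −0.93 ± 0.15, adjusted p = 3.3e-04. Meis2, with its 17837 bp domain, had 383, 517, 577 and 440.1 CPM under Vehicle against 451, 485, 427 and 521 CPM under TSA, which did not pass the test (−0.03 ± 0.12, adjusted p = 0.901). The summed level of the 20 genes, all of them tested and none at 0, was 1707 to 2218 CPM in Vehicle and 1146 to 1462 CPM in TSA libraries. How far a different share of ventral cells in the samples takes part in these falls was not tested.

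Among 18 genes of apical progenitors, 9 started at a domain, and 5 of these rose and 1 fell (median 0.45), where 15.4% of all tested genes rose and 17.6% fell. The 9 members elsewhere had 5 rises and 3 falls (median 0.24). Pax6 had 323, 381, 250.2 and 301 CPM under Vehicle against 99.99, 103, 104 and 123 CPM under TSA. Every TSA library was below every Vehicle library, and the log2 change by edgeR was −1.54 ± 0.12 (SE of 4 against 4 libraries, adjusted p = 2.5e-06). Emx1, a homeobox factor of the dorsal cortex, had 15.2, 21.9, 19.1 and 14.9 CPM under Vehicle against 36.7, 25.98, 23.5 and 40.3 CPM under TSA, a change of 0.82 ± 0.18, adjusted p = 0.00344, at a domain of 9069 bp. Its call was lost without Vehicle 1 and 4 together (adjusted p = 0.062). Vim, which encodes an intermediate filament of radial glia, changed by 0.72 ± 0.14, adjusted p = 0.00154. Sox2, a factor of stem cells with a domain of 8691 bp, had 79.9, 127, 116 and 83.5 CPM under Vehicle against 62.3, 70.3, 84.1 and 90.8 CPM under TSA, which overlapped and did not pass (−0.40 ± 0.16, adjusted p = 0.066), but passed without Vehicle 1 (0.0214) or TSA 4 (0.0462), without both mitochondria-rich Vehicle libraries (0.0040), with no filter (0.00218) and with a replicate block (0.0162). Of 18 genes of basal progenitors and the proneural programme, 9 started at a domain, where 1 rose (Neurog2) and 1 fell. The latter was Hes6, an inhibitor of Hes1 that favours neuronal differentiation (−0.28 ± 0.09, adjusted p = 0.0278), a call lost without TSA 1, 2 or 3 or Vehicle 4 (adjusted p = 0.0679 to 0.1005), without Vehicle 1 and 4 together (0.0823) and with no filter (0.0592). The 9 members elsewhere had 6 rises and 1 fall.

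Several genes that the study turns on did not start at a domain. Eomes, the marker factor of basal progenitors, had 71.6, 96.2, 60.9 and 55.3 CPM under Vehicle against 318, 282, 281 and 326 CPM under TSA, a change of 2.09 ± 0.15, adjusted p = 1.4e-06 by edgeR. Tbr1, a factor of early neurons, changed by 0.90 ± 0.11, adjusted p = 7.5e-05. Trnp1, a nuclear protein of progenitors that the study's title names, had 14.7, 14.1, 12.3 and 11.95 CPM under Vehicle against 17.7, 14.2, 13.04 and 13.9 CPM under TSA, which overlapped and did not pass (0.13 ± 0.13, adjusted p = 0.499). Smarcc1, the targeted gene, had 130.4, 148, 141 and 124 CPM under Vehicle against 133, 132, 118 and 144 CPM under TSA (−0.05 ± 0.09, adjusted p = 0.732). Counts over the whole gene, with no sample that carries intact BAF155, do not check the knockout. Its paralog Smarcc2, which encodes BAF170, changed by 0.47 ± 0.11, adjusted p = 0.00505. None of the 5 starts lay in a narrower region shared by all 8 lists either.

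Genes of the neuronal cytoskeleton were often at domains but moved both ways. Of 20 listed genes, 14 started at a domain, and 4 rose and 4 fell (median 0.03). Of the 6 elsewhere 3 rose and none fell (median 0.37). Map1b and Dpysl2, which bind and assemble microtubules, changed by 0.75 ± 0.13 and 0.41 ± 0.09 (edgeR adjusted p = 7.5e-04 and 0.00335). Stmn1 and Stmn2, stathmins that take microtubules apart, changed by −0.54 ± 0.08 and −0.50 ± 0.11 (adjusted p = 2.5e-04 and 0.00324). Of 27 BAF complex genes, 8 started at a domain and 4 of these rose (median 0.36), led by Arid1a, the largest subunit of the canonical complex (0.69 ± 0.10, adjusted p = 2.3e-04), and Dpf3, a reader of acetylated histones in its neuronal form (0.63 ± 0.12, adjusted p = 9.9e-04). Of the 19 BAF genes elsewhere 5 rose and 1 fell (median 0.15). Of 32 genes that write, erase or read H3K9 acetylation, 5 started at a domain and 3 rose (median 0.29), among them Ep300, an acetyltransferase (0.62 ± 0.10, adjusted p = 3.7e-04), and Rcor2, a corepressor in deacetylase complexes (0.54 ± 0.12, adjusted p = 0.00352). Of the 27 elsewhere 16 rose and 1 fell, with a median of 0.32. Of 27 genes of the Notch and Wnt pathways, 4 started at a domain, and 3 rose and 1 fell (median 0.54). Of the 23 elsewhere 11 rose and 1 fell (median 0.29). Fzd1, a Wnt receptor, and Rbpj, the DNA-binding partner of Notch, changed by 0.60 ± 0.10 and 0.48 ± 0.13 (adjusted p = 5.8e-04 and 0.0113), and Wnt7a, a ligand, by −0.35 ± 0.12, adjusted p = 0.0344. The Wnt7a call was lost without any 1 of TSA 2, 3 or 4 or Vehicle 3 or 4 (adjusted p = 0.0541 to 0.116), and the Rbpj call without Vehicle 1 and 4 together (0.0691). Lef1, a transcription factor of the Wnt pathway, changed by 0.68 ± 0.22, adjusted p = 0.0266, a call lost without TSA 1, 3 or 4 or Vehicle 3 or 4 (0.0505 to 0.0759) and without Vehicle 1 and 4 together (0.114). These medians stand beside −0.01 over all tested genes, of which 15.4% rose and 17.6% fell.

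Genes of ribosomes, respiration and splicing had more members at narrower regions than at domains, and each of their members called at a domain fell. Of 40 cytosolic ribosomal protein genes, 6 started at a domain and 20 at a narrower shared region. Of the 6, 5 fell (median −0.60), and of the other 34, 20 fell (median −0.52), where 17.6% of all tested genes fell. Rpl32 had 389, 274, 292 and 452 CPM under Vehicle against 178, 169, 165 and 154 CPM under TSA, a change of −1.08 ± 0.14, adjusted p = 1.1e-04 by edgeR, and the groups did not overlap. Its highest Vehicle values were in Vehicle 1 and 4, the libraries with most mitochondrial RNA, and the part of RNA composition in this was not tested. Rpl7 changed by −0.58 ± 0.09, adjusted p = 4.2e-04. Of 40 nuclear genes of oxidative phosphorylation, 4 started at a domain and 27 at a narrower region. Uqcrh and Atp5j, subunits of complex III and of the ATP synthase, changed by −0.99 ± 0.11 and −0.81 ± 0.11 (adjusted p = 3.9e-05 and 1.2e-04). Of the other 36 members, at narrower regions or at neither, 32 fell. Of 33 splicing factors, 6 started at a domain and 16 at a narrower region. At domains 2 of the 6 fell (median −0.04), and of the other 27, 4 rose and 4 fell (median −0.09). At domains Tra2b and Srsf3, splicing regulators, changed by −0.50 ± 0.09 and −0.45 ± 0.10 (adjusted p = 9.7e-04 and 0.00361). Without Vehicle 1 and 4 together the Srsf3 change was −0.28 (adjusted p = 0.0133). Of 30 cell cycle genes, 3 started at a domain, among them Cdkn1b, an inhibitor of cyclin-dependent kinases (−0.25 ± 0.08, adjusted p = 0.0278). Of 20 immediate early genes, 6 did, among them Jun (0.47 ± 0.16, adjusted p = 0.041). Each of these last 2 calls was lost without any 1 of several libraries: Cdkn1b without TSA 1, 2 or 3 or Vehicle 3 (adjusted p = 0.0523 to 0.126) and with no filter (0.108), and Jun without TSA 1, 2 or 4 or Vehicle 1 or 4 (0.0513 to 0.135) and with a replicate block (0.0824). Without Vehicle 1 and 4 together the Jun change was 0.19, adjusted p = 0.321.

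Lists of other cell types had no member at a domain. This held for 9 genes of Cajal-Retzius cells, 15 of microglia and macrophages, 13 of endothelium, 13 of erythroid cells and 31 Hox genes. The summed level of the Cajal-Retzius genes was 793 to 848 CPM in Vehicle and 905 to 1049.7 CPM in TSA. Of these 9 genes 1 rose and 1 fell by edgeR, with a median log2 change of −0.08, so the sum does not stand for the whole list. The erythroid list summed to 348 to 648 CPM in Vehicle and 231 to 260.3 CPM in TSA, and the microglia list to 68.8 to 97.7 CPM and 51.6 to 69.8 CPM. Of 11 erythroid genes tested 3 fell, and of 15 microglia genes 7 fell, with no rise in either list. The endothelial list summed to 159 to 245 CPM in Vehicle and 163 to 197 CPM in TSA, and 2 of its 13 genes fell. Of all tested genes 15.4% rose and 17.6% fell.

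The other falls named by the rule, which took called falls whose groups did not overlap, were in genes of other kinds. Not all of the 17 falls by more than 1 at domains are named here. Capza1, a subunit of the protein that caps actin filaments, had 20.4, 24.5, 24.3 and 26.4 CPM under Vehicle against 0.915, 4.52, 4.44 and 4.56 CPM under TSA, a change of −2.61 ± 0.25, adjusted p = 2.4e-05 (SE, n = 4 per group, edgeR). TSA 1 stood below the other TSA libraries, and all 4 were below Vehicle. Atp5md, a small subunit of the ATP synthase, had 41.9, 22.4, 27.3 and 45.5 CPM under Vehicle against 15.9, 17.5, 15.3 and 15.3 CPM under TSA, a change of −1.10 ± 0.19, adjusted p = 8.2e-04. Its highest values were in Vehicle 1 and 4, and without these 2 libraries, a setting chosen after seeing the data, the change was −0.64 (adjusted p = 0.00306). Sox1ot, a transcript that overlaps the Sox1 locus, had 143, 119.6, 128 and 141 CPM under Vehicle against 51.4, 62.7, 70.7 and 60.6 CPM under TSA, a change of −1.11 ± 0.10, adjusted p = 1.2e-05, at a domain of 5055 bp. Lockd, a lncRNA gene next to Cdkn1b, changed by −1.12 ± 0.19, adjusted p = 6.0e-04. With this unstranded kit, reads of a gene and of one overlapping or antisense to it are not separable. At the widest domain, C130071C03Rik had 638, 501, 476 and 578 CPM under Vehicle against 475, 474, 451 and 504 CPM under TSA, which overlapped and did not pass (−0.20 ± 0.11, adjusted p = 0.159). Mir9-3hg, the host of Mir9-3, changed by −0.22 ± 0.10, adjusted p = 0.116. Mn1, named as the sixth widest domain, changed by 0.64 ± 0.13, adjusted p = 0.00162.

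The length of a domain under peaks was compared between TSA and Vehicle by limma over all 12400 shared regions. The rule read the same peaks, and a domain may be wide because peaks of 1 group extend it, so nothing is read from the members' share of calls beside that of the other regions. The lengths, changes and calls below are descriptions of the domains. No domain was called longer and 1 was called shorter, where 0.0161% and 0.00806% of all shared regions were. At an unadjusted p under 0.05, 105 domains were longer and 70 shorter, 10.7% of them in all. Of the 12400 shared regions 548 were longer (4.42%) and 454 shorter (3.66%), or 8.08% in all. The median log2 change was −0.01, and without the lowest and highest 5% of domains the changes lay between −0.46 and 0.62. The domain called lay in Sp9 (chr2:73274000-73278174), a zinc finger gene of striatal and interneuron precursors, and overlapped the gene without holding its start. Its peaks covered 2694, 3904, 3597 and 2053 bp under Vehicle against 1161, 702, 622 and 892 bp under TSA. The groups did not overlap, and the change was −1.99 ± 0.21 (SE), adjusted p = 0.0124 with 4 lists per group. Every Vehicle list covered over 2000 bp there and no TSA list did. The rule thus admitted this domain largely through the Vehicle lists, and nothing is read from its shorter TSA peaks. Sp9 RNA changed by −1.32 ± 0.15, adjusted p = 4.9e-05 by edgeR. The length call was lost without TSA 2, TSA 3 or Vehicle 2 (adjusted p = 0.0579 to 0.0786), without centring (0.229) and with a replicate block (0.0841). Without TSA 4, 7 domains were called shorter, and without Vehicle 3, 5 were called longer.

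Other domains with small p values did not pass, and several of them held genes named above. At Dlx6 (chr6:6863210-6867609) peaks covered 3933, 4232, 4274 and 3467 bp under Vehicle against 1213, 372, 391 and 2525 bp under TSA, a change of −2.42 ± 0.45 (SE), adjusted p = 0.112. At Dlx1 (chr2:71524705-71533672) they covered 7747, 7913, 8158 and 6163 bp under Vehicle against 2407, 1720, 2418 and 5890 bp under TSA, a change of −1.57 ± 0.28 (SE), adjusted p = 0.105. In both, every TSA list was below every Vehicle list. At Nrn1 they covered 763, 1033, 2106 and 162 bp under Vehicle against 3832, 4782, 4328 and 5774 bp under TSA, and at Neurog2 1233, 1439, 1445 and 492 bp under Vehicle against 2463, 2306, 2097 and 3063 bp under TSA. Of the Vehicle lists, 1 reached 2000 bp at Nrn1 and none did at Neurog2, while every TSA list did at both. The rule thus admitted them largely through the TSA lists, and nothing is read from their longer TSA peaks. At Dlx6 every Vehicle list reached 2000 bp and, of the TSA lists, TSA 4 alone did. The same limit holds there, with the Vehicle lists as the longer ones. The merged width at Dlx1 was likewise read from these peaks, so nothing is read from its shorter TSA peaks. A domain inside Map1b (chr13:99445136-99447984) went from a mean of 1937 to 772 bp (−1.46 ± 0.25 (SE), adjusted p = 0.083), whereas Map1b RNA rose. Vehicle 2 and Vehicle 3 reached 2000 bp at that domain and no TSA list did, so nothing is read from its shorter TSA peaks. In all, 34 domains had every TSA list above every Vehicle list and 14 the reverse, where 243 (1.96%) and 36 (0.29%) of the 12400 shared regions did. These counts use covered bases without centring, and by median coverage Vehicle 4 was the lowest list and TSA 4 the highest.

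With the widest single peak of each list in place of all covered bases, 6 domains were called longer and 22 shorter, where 0.153% and 0.226% of all shared regions were. Those called shorter included Dlx6 (−3.09 ± 0.35), Dlx1 (−2.22 ± 0.30), Dlx2 (−2.17 ± 0.33), Dlx5 (−1.65 ± 0.26), Pax6 (−2.15 ± 0.31), Gad1 (−1.83 ± 0.27), Sp8 (−1.61 ± 0.29) and the domain in Sp9 (−2.08 ± 0.28), with log2 changes and SE by limma. Those called longer were at Nrn1, Neurog2, Rspo3, Prdm8, Nuak1 and Lrfn5. At these 6 no Vehicle list had a peak wider than 804 bp, and since the width rule read the TSA peaks too, nothing is read from these calls. The same limit holds, with the Vehicle peaks as the longer ones, for the domains called shorter. This measure changes when a list breaks a block of signal into pieces, and TSA 4 had the fewest pieces, with 558 domains as a single peak against 196 to 296 in the other 7 lists.

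Across 895 domains with 1 tested coding gene, the change in covered length and in RNA had a Pearson r of 0.35 and a Spearman rho of 0.23. These are over domains that share the same 8 lists and 8 RNA libraries, and carry no test. The lengths come from the peaks that the width rule read, and peaks of 1 treatment may have made a domain wide. The correlations and the shares below are therefore descriptions, and nothing further is read from them. Peaks covered more bases in TSA at 426 of the 895 domains (47.6%). This held for 181 of 343 domains whose gene rose (52.8%, median log2 length change 0.02), 215 of 453 whose gene was not called (47.5%, median −0.01) and 30 of 99 whose gene fell (30.3%, median −0.09).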

How the data were processed

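RNA was measured in 4 Vehicle and 4 TSA libraries and H3K9ac in 4 and 4. The deposited RNA values are raw counts per Ensembl gene, unnormalised. Per the submitters' processing notes mm10 and SAMtools were used, with aligner and counter not given in the sources used here. Per the file headers, H3K9ac peaks were called per sample with MACS2 2.1.0.20140616 at a q limit of 0.1 against 1 input of 18937878 tags. The deposited lists give for each peak a pileup signal, a −log10 p-value and q-value and a fold enrichment ratio, which are the authors' own values.

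Peaks were merged and assigned to RefSeq gene starts (GRCm38.p6). RNA was tested with edgeR 4.0.16 (quasi-likelihood, TMM, filterByExpr) over 15000 genes and covered length with limma 3.58.1 on log2 bp, centred per list, over 12400 regions, both with Benjamini-Hochberg adjustment at 0.05 and no covariate. CPM values use TMM library sizes. DESeq2 1.42.0, limma-voom, other filters, widths and merging were alternatives. Both tests were tested on simulated data. Named genes were the 8 largest called rises and falls at domains whose groups did not overlap, up to 2 members per list and direction with the smallest p, and 8 set genes, and some of the genes so named are not reported here. Further genes and promoters (Mn1, Gad1, Gad2, Dlx2, Sp8, Sp9, Slc32a1, Fezf2, Nfib, Bcl11a, Mef2c, Meis2, Lef1, Nkx2-1, Lhx8, Lhx6, Gsx2, Mir9-3hg, C130071C03Rik, Ndufs3, Cdk4 and those in the closing section) were chosen after their values were seen. The members and the 18 gene lists were chosen with earlier results of these data known.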

Additional observations from a re-analysis of the deposited data

Results flagged for a closer look

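In 206 groups of 4 samples, 15 had 1 sample whose gap to the nearest other exceeded Dixon's 95% critical value. Chance flags about 1 in 20 groups. In RNA, Capza1 was 0.915 CPM in TSA 1 against 4.44 to 4.56 in the other TSA libraries. Pax6 was 123 CPM in TSA 4 against 99.99 to 104. Map1b was 2923 CPM in TSA 4 against 3225 to 3285, and Atp5j 74.5 CPM in TSA 4 against 72.6 to 72.7. Sox2ot was 62.6 CPM in TSA 3 against 50.3 to 51.7, and Nr2f1 293 CPM in TSA 3 against 205 to 215.

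In the peak lists, Vehicle 4 was low at 4 domains. Peaks covered 8383 bp at Mn1 against 13574 to 13849 bp in the other Vehicle lists, 953 bp in Slc32a1 against 2406 to 2640 bp, 2858 bp in Sox2ot against 4967 to 5384 bp, and 2794 bp at Gad1 against 4206 to 4490 bp. TSA 4 was high at Dlx1, with 5890 bp against 1720 to 2418 bp in the other TSA lists. Vehicle 4 had 22668 peaks against 41331 to 43645. TSA 4 had 19920755 tags against 15365856 to 16018415, 3444 peaks in domains against 4638 to 4781, and 558 domains with a single peak against 196 to 239.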

How the results depend on the processing

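The count of domains moved with its definition: 1633 became 495 at a width of 3000 bp, 3604 at 1500 bp and 3325 when peaks within 200 bp were merged, and leaving out 1 list gave 1288 to 1664. Domain genes that rose and fell numbered 153 and 41 at 3000 bp and 590 and 501 at 1500 bp, and the other settings stayed within 1.5 times of 370 and 175. Leaving out 1 RNA library gave 290 to 408 rises and 147 to 203 falls. The share of domains with a gene start was 79.4% with merging within 200 bp, 66.3% over 6 lists without Vehicle 4 and TSA 4 (chosen after seeing the data) and 66.3% to 69.5% without 1 list. The median RNA level of domain genes, 68.4 CPM in Vehicle and 74.0 in TSA, was 94.5 and 102 at 3000 bp, 56.4 and 55.1 at 1500 bp, 60.6 and 64.5 with merging within 200 bp, and 71.2 and 78.6 over the 6 lists. Without 1 list it was 65.5 to 71.8 in Vehicle and 71.1 to 79.2 in TSA. Domains called longer and shorter, 0 and 1, became 6 and 22 with the widest single peak. Those called longer became 1 at 1500 bp. Those called shorter became 0 without centring, with a replicate block and without both Vehicle 4 and TSA 4, the last chosen after seeing the data. Leaving out 1 list gave 0 to 5 longer and 0 to 7 shorter. The cause was not tested. With a replicate block 401 domain genes rose and 179 fell. Same-numbered RNA libraries had deviations correlated at 0.070 to 0.111 and H3K9ac lists at −0.22 to 0.04, so the numbers were not taken to pair samples. Of 1022 refits of the RNA of 73 genes, 969 kept their side of the threshold, 47 lost the call and 6 gained it. No called gene changed sign. The sign of Meis2 (−0.22 to 0.08) and Smarcc1 (−0.14 to 0.003), not called in any refit, depended on the libraries used.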

Other observations

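Of 89 long non-coding genes tested at domains, 5 rose and 16 fell by edgeR, with a median log2 change of −0.22, and of 1142 coding genes 365 rose and 159 fell. At lncRNA genes of narrower regions 8 of 215 rose and 32 fell, and elsewhere 20 of 357 rose and 42 fell. Neighbouring genes moved apart at Pou3f3. Pou3f3, a factor of upper layers, had 248, 307, 277 and 204 CPM under Vehicle against 430.1, 473, 364 and 487 CPM under TSA, a change of 0.76 ± 0.13, adjusted p = 5.3e-04, and Pantr1, a lncRNA gene whose start lies in the same domain, had 115, 116, 103 and 118 CPM under Vehicle against 78.95, 83.4, 74.3 and 84.5 CPM under TSA, a change of −0.49 ± 0.08, adjusted p = 5.6e-04 (SE, n = 4 per group, edgeR). The kit does not keep strand.

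Domains lay close together at some loci. Within 5000 bp of another domain lay 248 of the 1633 (15.2%), in 107 runs, 22 of them of 3 or more. The run at Nr2f1, an orphan nuclear receptor that patterns the cortex, had 7 domains with 26.5 kb, and its RNA was 208, 221, 184 and 161 CPM under Vehicle against 206, 215, 293 and 205 CPM under TSA (0.25 ± 0.13, adjusted p = 0.154). Runs of 6 lay in the Nfix locus, of 5 at Mir9-1, and of 4 at loci that included Pou3f3 and Ulk4. Of 278 domains without a start that lay in a coding gene with a listed start, 237 lay downstream of it, at a median of 704.5 bp from the nearest start, and 66 were over 20 kb away. Outside coding genes, a 6089 bp domain in Sox2ot lay 7950 bp from Sox2. Sox2ot RNA was 143, 136, 146 and 163 CPM under Vehicle against 50.3, 51.7, 62.6 and 51.2 CPM under TSA, a change of −1.44 ± 0.10, adjusted p = 6.4e-07.

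Wholly inside a domain lay 30 coding genes, among them Sox2, Tubb2b, Dlx2, Neurod6, Neurod2, Tuba1a, Sox4 and Hes5. Of the 20 tested, 4 rose and 4 fell, 20% each, where 15.4% of all tested genes rose and 17.6% fell. At domains, 20 coding genes had count rows but too few counts to test, among them the histone genes H2ac20, H2ac21, H4c8, H4c11, H4c18, H3c11 and H2ac24.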
